A study of Mus musculus with 4 samples.

Results

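G protein coupled receptors other than chemokine receptors were described in mouse CD4+ T cells that had been made to express the transcription factor Tox2. The genes were taken by name: numbered Gpr genes, adhesion receptors, and the families of receptors for nucleotides and adenosine, prostanoids, leukotrienes, sphingosine 1-phosphate, lysophosphatidic acid, amines, acetylcholine, proteases, thyrotropin-releasing hormone and Wnt proteins, with their accessory proteins. Of 11027 genes listed, 65 matched. The match used only names, so no measured value chose the genes, but the tables list a gene only above a low level: in every listed gene the second-highest library had at least 0.658 CPM (reads of the gene scaled to the total reads of the library). The 65 are therefore the family members seen in these cells and not the whole family. Adgre1, for instance, the receptor gene that defines macrophages, was not among the listed genes. Some matches are no receptors of this kind: Htra2 is a mitochondrial serine protease, Gpr89 a regulator of Golgi pH, and Ramp1 and Ramp3 are single-pass proteins that give the calcitonin receptor-like receptor its ligand preference.

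All cells started as naive CD4+ T cells, taken from wild-type C57BL/6 mice aged 7 to 8 weeks (spleen with lymph nodes), which were activated and infected with retrovirus in neutral conditions and then sorted for GFP. The virus carried either Tox2 with GFP or GFP alone. The sorted cells were cultured in Tfh-like medium, with antibodies blocking IFN-gamma, IL-4 and IL-2 together with IL-6, or in Th0 medium, with the same antibodies and no IL-6. The groups were Tfh-like with Tox2, Tfh-like with GFP, Th0 with Tox2 and finally Th0 with GFP, and each was 1 library of total RNA. Tox2 counts were 32246 with the Tox2 virus and 851 with the GFP virus in Tfh-like, and 35297 and 144 in Th0. Reads from the virus and from the cells' own Tox2 gene were not told apart.

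A G protein coupled receptor crosses the membrane repeatedly, binds its ligand outside and activates a heterotrimeric G protein inside. Receptors that couple to Gs raise cyclic AMP, those that couple to Gi lower it, those that couple to Gq release calcium through phospholipase C, and those that couple to G12 or G13 act on the cytoskeleton. In T cells such receptors guide position, as S1pr1 does in leaving lymph nodes and S1pr2 in staying inside follicles, and Gs-coupled receptors for prostaglandin E2 and adenosine restrain activation.

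The data came from 13562334 counts in Tfh-like with Tox2, 13518274 in Tfh-like GFP cells, 13673774 in Th0 with Tox2 and 13015283 in Th0 with GFP. A gene with 0 reads could still have had a true level of 3 counts, which is 0.216 to 0.230 CPM here. Of the 7 CD4 T cell markers examined 6 were listed, with summed levels of 4329 to 4478 CPM over the libraries. Summed levels were 0.766 to 1.73 CPM for the 1 listed of 5 B cell markers, 8.27 to 14.3 CPM for 3 of 6 macrophage markers, 1.99 to 4.93 CPM for 2 of 4 dendritic cell markers, 1.30 to 4.14 CPM for 1 of 3 NK cell markers and 9.14 to 15.4 CPM for 1 of 2 CD8 markers. None of 4 neutrophil markers was listed. The 2 listed of 5 stromal and endothelial markers summed to 103 to 187 CPM, nearly all of it Pecam1, which lymphocytes also carry. Pecam1 was lower in Tfh-like libraries with Tox2 and GFP (125 and 89.2 CPM) than in Th0 libraries (182 and 139 CPM). Col1a1, the other, was higher (12.4 and 13.5 against 5.04 and 5.28 CPM). The NK cell marker Klrd1 was higher too (3.66 and 4.14 against 1.30 and 1.71 CPM). The B cell marker Cd79a was lower (0.971 and 0.766 against 1.73 and 1.41 CPM). The part of these other cells in any receptor result was not tested. In bulk RNA, fewer cells of a type and less RNA per cell cannot be told apart.

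Levels between genes were compared per length, in FPKM as the authors deposited it. The receptor genes spanned a wide range: 18 of 65 averaged at least 10 FPKM over the libraries, 44 at least 1 and 21 under 1. S1pr4, a sphingosine 1-phosphate receptor of lymphoid cells, was the highest, with 73.3 FPKM in Tfh-like with Tox2, 76.4 in Tfh-like GFP cells, 55.0 in Th0 with Tox2 and 68.3 in Th0 with GFP. Below it in order of the mean were Gpr132, Gpr171, S1pr1, Ramp1, P2ry10, Adora2a, Gpr108 and Gpr183, which averaged between 39.8 and 23.2 FPKM. These include Gpr132, counted in the family of acid-sensing receptors, the lysophosphatidylserine receptor P2ry10 and the Gs-coupled adenosine receptor Adora2a. The oxysterol receptor Gpr183, which guides lymphocytes to follicle edges, is also among them. Adora2a was nearly level, at 27.2, 29.0, 27.7 and 22.6 FPKM in the same order of libraries, and P2ry10 likewise, at 31.1, 26.0, 27.3 and 25.3 FPKM. Gpr132 was not: it had 55.6 and 50.3 FPKM in the Tfh-like libraries with Tox2 and GFP, against 28.5 and 24.9 FPKM in the Th0 libraries. Summed over the 65 genes, counts came to 2859 CPM in Tfh-like with Tox2, 2833 in Tfh-like GFP cells, 2083 in Th0 with Tox2 and 2125 in Th0 with GFP.

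**Figure D1:**
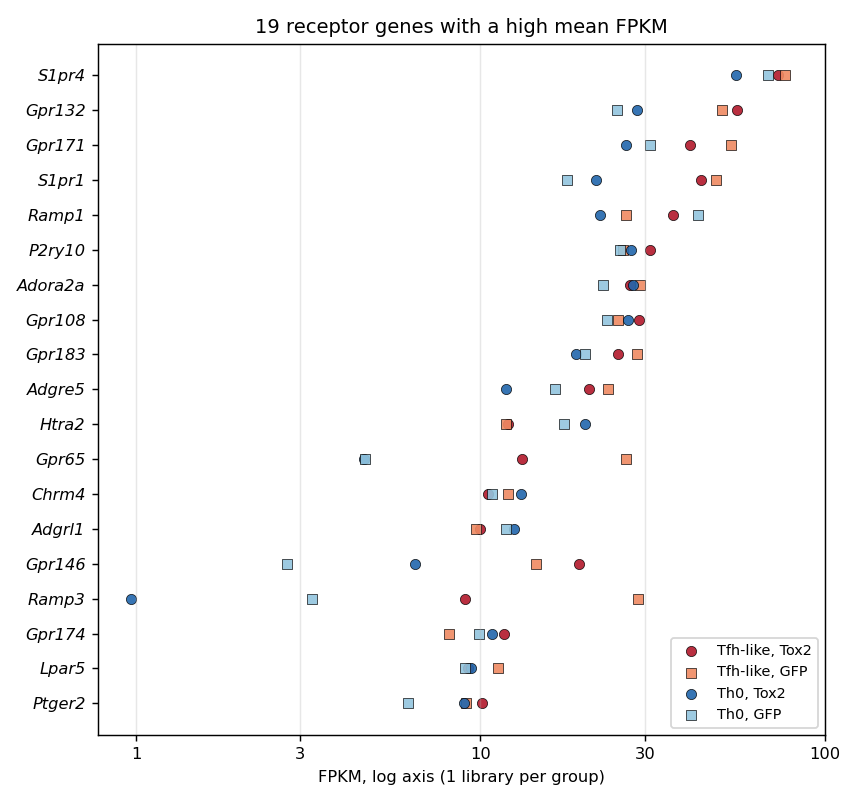
FPKM on a log axis (horizontal) of 19 receptor genes with a high mean FPKM (vertical, highest at the top); each point is 1 library, coloured by culture and virus. S1pr4 leads in all 4 libraries, while Gpr146 and Ramp3 spread the most, with Tfh-like libraries to the right of Th0 libraries.

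The Tfh-like culture was the larger divide. Against Th0, 28 of 64 receptor genes passed an additive fit of culture and virus over the 4 libraries (edgeR quasi-likelihood test, Benjamini-Hochberg adjusted p under 0.05), where 24.2% of all 10960 genes tested passed. Of these 23 rose and 5 fell, against 14.3% and 9.96% of all genes. Ltb4r1 and Trhr2, both among the 23, are listed only through the Tfh-like libraries, so their listing favoured a rise. Without them 26 of 62 receptor genes passed, 21 higher and 5 lower. The median log2 fold was 0.19 over the receptor genes and -0.01 over all genes. Of the 65 genes, 1 was too low to be tested. The receptor median stays at 0.19 with Trhr2, which has no Th0 count with Tox2, set at its bound. The fit has 1 residual degree of freedom, so its p-values rest on spread shared across genes, and none of them measures spread between cultures or animals of a group.

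**Figure D2:**
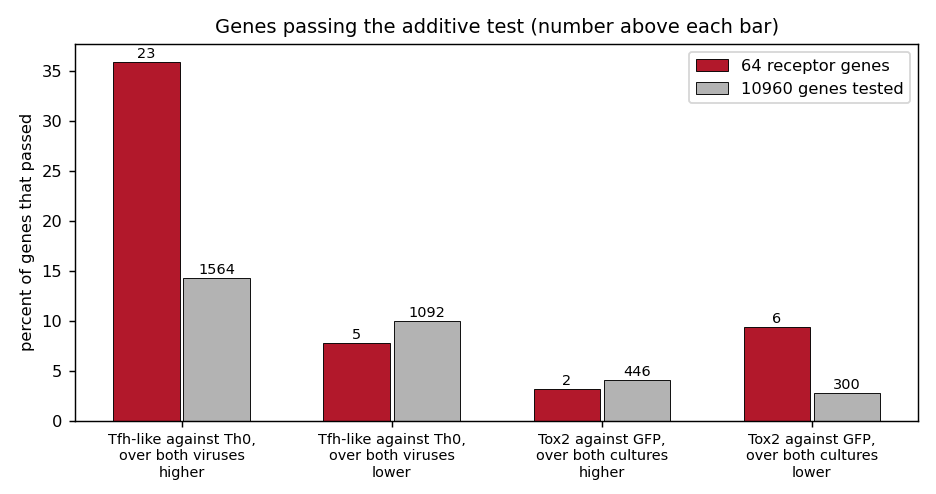
Percent of genes that passed the additive fit (vertical, from 0) in each direction, for the 64 receptor genes and for all 10960 genes tested; numbers above the bars are gene counts. Receptor genes passed in 23 cases for a rise in Tfh-like culture and in 6 cases for a fall with Tox2.

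Gpr65 and Gpr132, both counted in the family of acid-sensing receptors, rose in the Tfh-like culture. Gpr65, a Gs-coupled proton sensor of lymphocytes, had 34.0 CPM in Tfh-like with Tox2, 68.5 in Tfh-like GFP cells, 11.8 in Th0 with Tox2 and 12.1 in Th0 with GFP, a log2 fold of 2.02 (SE 0.23, adjusted p = 0.00185, edgeR). Both Tfh-like libraries stood above both Th0 libraries. Gpr65 shares 24.7% of its exon bases with an antisense RNA, so its counts are uncertain to that extent. Gpr132 rose by 0.98 (SE 0.10, adjusted p = 0.00132), with 187 and 170 CPM in Tfh-like libraries with Tox2 and GFP, against 95.9 and 85.6 CPM in Th0 libraries.

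Lipid receptors moved in both directions. Of the 6 receptors for sphingosine 1-phosphate and lysophosphatidic acid, 2 rose and 1 fell. S1pr1 had 166 and 184 CPM in the Tfh-like libraries with Tox2 and GFP, against 82.0 and 68.6 CPM in the Th0 libraries (log2 fold 1.22, SE 0.13, adjusted p = 0.00154). S1pr2 had 63.3 and 62.4 CPM against 21.5 and 28.6 CPM (1.34, SE 0.14, adjusted p = 0.00131), so the egress receptor and the follicle-retaining receptor rose together. S1pr4 did not pass (0.28, SE 0.11, adjusted p = 0.122). The lysophosphatidic acid receptor Lpar2 fell by 1.02 (SE 0.20, adjusted p = 0.0127), with 8.29 and 10.3 CPM in Tfh-like and 20.2 and 17.6 CPM in Th0 libraries, while Lpar5 and Lpar6 did not pass, at log2 folds of 0.14 and -0.29. Gpr55, which responds to lysophosphatidylinositol, had 4.93 and 11.1 CPM in Tfh-like libraries with Tox2 and GFP, against 26.6 and 32.7 CPM in Th0 libraries, and fell by 1.95 (SE 0.23, adjusted p = 0.00209). It was the receptor gene that fell furthest with the culture, followed by Gpr34, a lysophosphatidylserine receptor with 2.24 and 2.53 CPM in Tfh-like and 5.25 and 7.37 CPM in Th0 libraries, at -1.39 (SE 0.27, adjusted p = 0.0134). The other lysophosphatidylserine receptors listed, P2ry10 and Gpr174, did not pass, at 0.10 and -0.09.

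Leukotriene receptors rose, and no prostanoid receptor did. Cysltr2, which binds cysteinyl leukotrienes, had 19.4 and 17.2 CPM in Tfh-like libraries with Tox2 and GFP, against 1.94 and 1.56 CPM in Th0 libraries, a log2 fold of 3.38 (SE 0.22, adjusted p = 0.000303). Cysltr1, its relative, rose by 1.77 (SE 0.39, adjusted p = 0.0211). Ltb4r1 encodes the high-affinity receptor for leukotriene B4, a chemoattractant receptor of effector T cells. It had 12 and 84 counts in Tfh-like libraries with Tox2 and GFP, against 1 and 2 counts in Th0 libraries, and rose in the fit. Ltb4r1 is listed only through the Tfh-like libraries, so its listing favoured a rise and the call is no separate evidence. With so few Th0 counts its Tfh-like to Th0 ratio was 12.5 with Tox2 (95% counting interval 1.84 to 532) and 43.2 with GFP (11.6 to 363). Among the prostanoid receptors, Ptger4, the Gs-coupled EP4 receptor for prostaglandin E2, fell by 0.54 (SE 0.11, adjusted p = 0.0173). Ptger2, Ptger3 and the prostacyclin receptor Ptgir did not pass, with log2 folds of 0.35, 0.05 and 0.46.

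Ramp3, which turns the calcitonin receptor-like receptor into an adrenomedullin receptor, rose by 3.16 (SE 0.17, adjusted p = 0.000191), with 15.4 and 49.4 CPM in Tfh-like libraries with Tox2 and GFP, against 1.66 and 5.65 CPM in Th0 libraries. The receptor it serves, Calcrl, looked up after the Ramp values were seen, had 292 and 332 counts against 197 and 151 counts. Calcrl rose with the culture by 0.90 (SE 0.18) and did not pass for Tox2 (0.04, SE 0.18). Ramp1, which makes the same receptor bind calcitonin gene-related peptide, did not pass. Gpr15, a homing receptor for the large intestine, had 1.34 and 10.8 CPM in Tfh-like and 0.432 and 0.670 CPM in Th0 libraries, and rose by 3.22 (SE 0.55). It reached the filter of 1 CPM only through the Tfh-like libraries, so its entry favoured a rise. Gpr15 exons overlap the opposite-strand gene Cpox over 12.5% of their bases, and Cpox itself had 634, 1370, 806 and 786 counts in Tfh-like with Tox2, Tfh-like with GFP, Th0 with Tox2 and finally Th0 with GFP. The strand setting of the counting is not given in the sources used here, and the part of Cpox reads in the Gpr15 counts was not tested.

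Other receptors that rose were spread over the families. Trhr2, a rodent receptor for thyrotropin-releasing hormone, had 121 and 15 counts in Tfh-like libraries with Tox2 and GFP, against 0 and 1 in Th0 libraries. Trhr2 too is listed only through the Tfh-like libraries, so its listing favoured a rise. With Tox2 it was at least 41.9-fold higher in Tfh-like than in Th0, counting the Th0 library as 3 counts. With GFP the ratio was 15.4 (95% counting interval 2.38 to 650). The Wnt receptor Fzd7 had 44.2 and 51.7 CPM in Tfh-like and 15.2 and 9.75 CPM in Th0 libraries, and rose by 1.96 (SE 0.21, adjusted p = 0.00156). Gpr146, linked to cholesterol levels in mouse, had 163 and 122 CPM against 54.4 and 23.5 CPM and rose by the same 1.96 (SE 0.19, adjusted p = 0.00114). Smaller rises were those of 3 abundant receptors. Gpr171 had 112 and 149 CPM in Tfh-like and 73.1 and 87.6 CPM in Th0 libraries with Tox2 and GFP (0.69). The adhesion receptor Adgre5, also called CD97, had 96.4 and 110 CPM against 55.5 and 78.1 CPM (0.64), and Gpr183 had 90.0 and 102 CPM against 67.9 and 73.6 CPM (0.44). Each stood higher in both Tfh-like libraries. Adgre5 shares 23.8% of its exon bases with Ddx39, so its counts are uncertain to that extent. Ddx39 itself was lower in Tfh-like, with 1305 and 1645 counts with Tox2 and GFP, against 1626 and 2325 counts in Th0. The part of Ddx39 reads in the Adgre5 counts was not tested.

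The remaining rises were of genes at lower levels. The protease-activated receptor F2rl1 had 5.83 and 8.66 CPM in Tfh-like and 1.73 and 2.53 CPM in Th0 libraries (log2 fold 1.76), and the orphan Gpr45 had 4.48 and 7.97 CPM against 1.15 and 1.93 CPM. The histamine receptor Hrh2 had 3.36 and 4.37 CPM against 1.30 and 1.41 CPM. All 3 were higher in both Tfh-like libraries. The orphan Gpr160, at 9.19 and 4.98 CPM against 4.32 and 3.05 CPM, rose by 0.91. Gpr137, a lysosomal protein whose exons overlap Bad, had 26.9 and 31.3 CPM against 18.7 and 19.1 CPM and rose by 0.62. The adenosine receptor Adora2b, described with Tox2, rose by 1.07. Fzd10 had 23 and 28 counts in Tfh-like libraries with Tox2 and GFP, against 3 and 10 counts in Th0 libraries, and also rose. Like Gpr15, Fzd10 reached the filter of 1 CPM only through the Tfh-like libraries. The fifth gene that fell was the protease Htra2, with 44.1 and 43.7 CPM in Tfh-like and 73.6 and 65.3 CPM in Th0 libraries (-0.66), sharing 25.6% of its exon bases with Aup1. A DESeq2 fit of the same model called 21 receptor genes for the culture and lost Adora2b, Fzd10, Gpr137, Gpr160, Gpr183, Gpr34, Hrh2 and Ptger4.

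Pair by pair, the culture folds of several receptor genes were alike with each virus. A gene was called 2-fold apart between 2 libraries where the log2 fold was 1 or more, up or down, and its 95% counting interval did not reach 0. No test stands behind such a pair, since each group is 1 library. With Tox2, 19 receptor genes were 2-fold apart between Tfh-like and Th0 (15 higher and 4 lower, where 9.43% of all genes were, 6.56% higher and 2.86% lower), and with GFP 20 were (17 higher and 3 lower, where 10.9% of all genes were, 7.78% higher and 3.11% lower). Among those higher with each virus are Ltb4r1, Trhr2, Gpr15 and Fzd10, whose entry rests on the Tfh-like libraries. The log2 folds of Ramp3 were 3.11 with Tox2 and 3.09 with GFP, and those of Cysltr2 were 3.23 and 3.34. Others differed: Gpr15 had 1.36 with Tox2 and 3.74 with GFP, and Gpr35, an orphan receptor that did not pass the fit, had -0.71 and -3.06. The median log2 fold of the receptor genes was 0.19 with Tox2 and 0.31 with GFP, and 67.2% and 65.6% of them lay above 0, where 50.2% and 49% of all genes did.

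**Figure D3:**
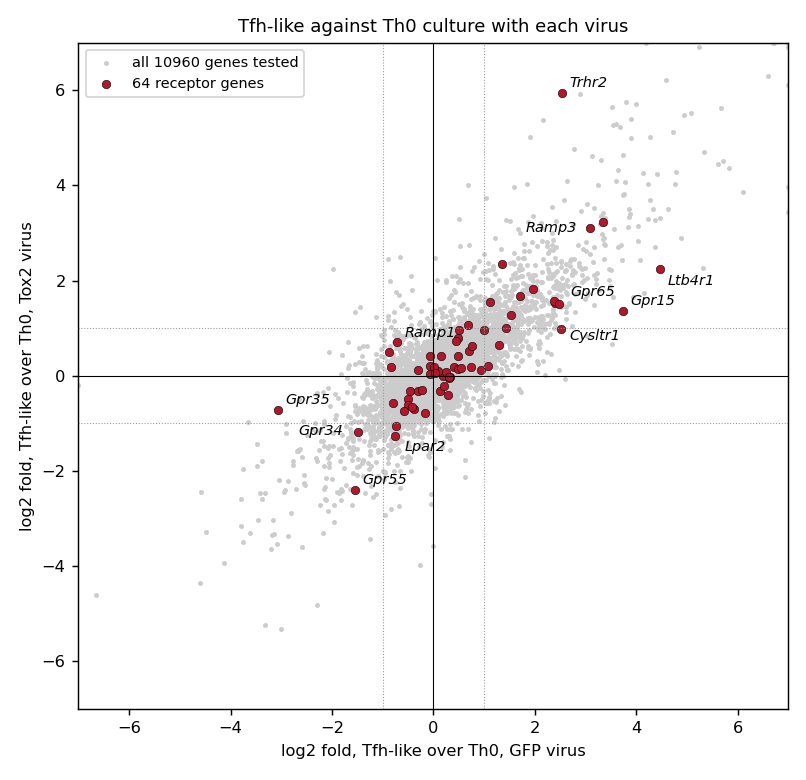
Log2 fold of Tfh-like over Th0 with the GFP virus (horizontal) and with the Tox2 virus (vertical) for 64 receptor genes (red) and all 10960 genes tested (grey; beyond the axes, drawn at the edge); each fold compares 1 library with 1 library and dotted lines mark 2-fold. Ramp3 sits near the diagonal at 3.09 and 3.11, Gpr15 lies low at 3.74 and 1.36, and the folds of Trhr2 and Ltb4r1 rest on at most 2 Th0 counts per library and depend on the prior count.

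Fewer receptor genes passed for Tox2. Over both cultures 8 of 64 passed (12.5%, where 6.81% of all genes passed): 6 fell and 2 rose, against 2.74% and 4.07% of all genes. The median log2 fold was 0.03 over receptor genes and 0.00 over all genes. At an unadjusted p under 0.05 there were 24 receptor genes and 3003 of all genes. The genes that fell were Ramp3, Ptger4, Adora2b, Ltb4r1, Gpr83 and Gpr15, and those that rose were Gpr153 and Trhr2. Of these, Ramp3, Ptger4 and Adora2b passed under every alternative fit tried. With DESeq2 4 receptor genes passed, since Ltb4r1, Gpr83, Gpr15, Gpr153 and Trhr2 were lost and Gpr146 was gained. With scaling by total count alone 13 passed, 6 higher and 7 lower.

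Ramp3 was lower with Tox2 in each culture. It had 206 counts in Tfh-like with Tox2 and 645 in Tfh-like with GFP, and 23 counts in Th0 with Tox2 and 76 in Th0 with GFP. The log2 folds were -1.67 in Tfh-like (95% counting interval -1.92 to -1.45) and -1.69 in Th0 (-2.51 to -1.08), and in the fit it fell by 1.71 (SE 0.17, adjusted p = 0.00563, edgeR). The Tox2 and GFP libraries were thus apart by a like factor although the cultures differed several-fold in level. Ramp3 shares 7.32% of its exon bases with a pseudogene on the opposite strand. The adenosine receptor Adora2b, a low-affinity receptor coupled to Gs, had 39 and 162 counts in Tfh-like with Tox2 and GFP, and 25 and 67 counts in Th0 with Tox2 and GFP. It fell by 1.81 (SE 0.28, adjusted p = 0.0195). Its high-affinity relative Adora2a, at 103, 111, 105 and 87.6 CPM in Tfh-like with Tox2, Tfh-like with GFP, Th0 with Tox2 and lastly Th0 with GFP, did not pass (0.08, SE 0.12, adjusted p = 0.714).

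Among prostaglandin E2 receptors 1 passed for Tox2. Ptger4 had 326 counts in Tfh-like with Tox2 and 666 in Tfh-like with GFP, and 533 in Th0 with Tox2 and 923 in Th0 with GFP, and fell by 0.95 (SE 0.11, adjusted p = 0.00985, edgeR). Ptger2, the other Gs-coupled receptor for this ligand, had 65.0, 58.7, 57.9 and 40.5 CPM in the same order and did not pass (0.33, SE 0.12, adjusted p = 0.15). Ptger3, coupled to Gi, had 2.39, 3.52, 2.30 and 3.42 CPM and did not pass either. The difference between these receptors in their response was not tested. Ptger4 shares 15.3% of its exon bases with a pseudogene on the opposite strand, so its counts are uncertain to that extent.

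Ltb4r1, Gpr15 and Gpr83 also fell, and each was highest in Tfh-like with GFP. Ltb4r1 reached the filter of 1 CPM in that library alone, so its entry also favoured a fall with Tox2. Ltb4r1 had 12 counts in Tfh-like with Tox2 and 84 in Tfh-like with GFP, a log2 fold of -2.65 (95% counting interval -3.85 to -1.96), while in Th0 both libraries were under the 3-count limit and give no fold (adjusted p = 0.0302 over both cultures). Gpr15 had 18 and 141 counts in Tfh-like with Tox2 and GFP, and 6 and 9 in Th0 with Tox2 and GFP (-2.42, SE 0.53, adjusted p = 0.0486). Cpox, which overlaps it, also differed in the Tfh-like pair, at -1.14. Gpr83, an orphan receptor gene known in mouse as a mark of regulatory T cells, had 36 and 132 counts in Tfh-like and 32 and 63 counts in Th0, with Tox2 and GFP in each pair (-1.49, SE 0.31, adjusted p = 0.0408). All 3 calls were lost with DESeq2 and after removal of trends with GC content and length.

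Of the genes that rose, the orphan Gpr153 was higher with Tox2 in each culture. It had 46 counts in Tfh-like with Tox2 and 11 in Tfh-like with GFP, and 72 counts in Th0 with Tox2 and 21 in Th0 with GFP (1.85, SE 0.32, adjusted p = 0.0271). Trhr2 was seen almost only in Tfh-like with Tox2, with 121 counts against 15 in Tfh-like with GFP, a log2 fold of 2.82 (95% counting interval 2.20 to 3.86). Its Th0 libraries held 0 counts with Tox2 and 1 with GFP, and no Tox2 fold is given there. Its adjusted p over both cultures was 0.0451, and the call was lost with DESeq2, limma-voom, robust estimation, a filter at 5 CPM and removal of GC and length trends.

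**Figure D4:**
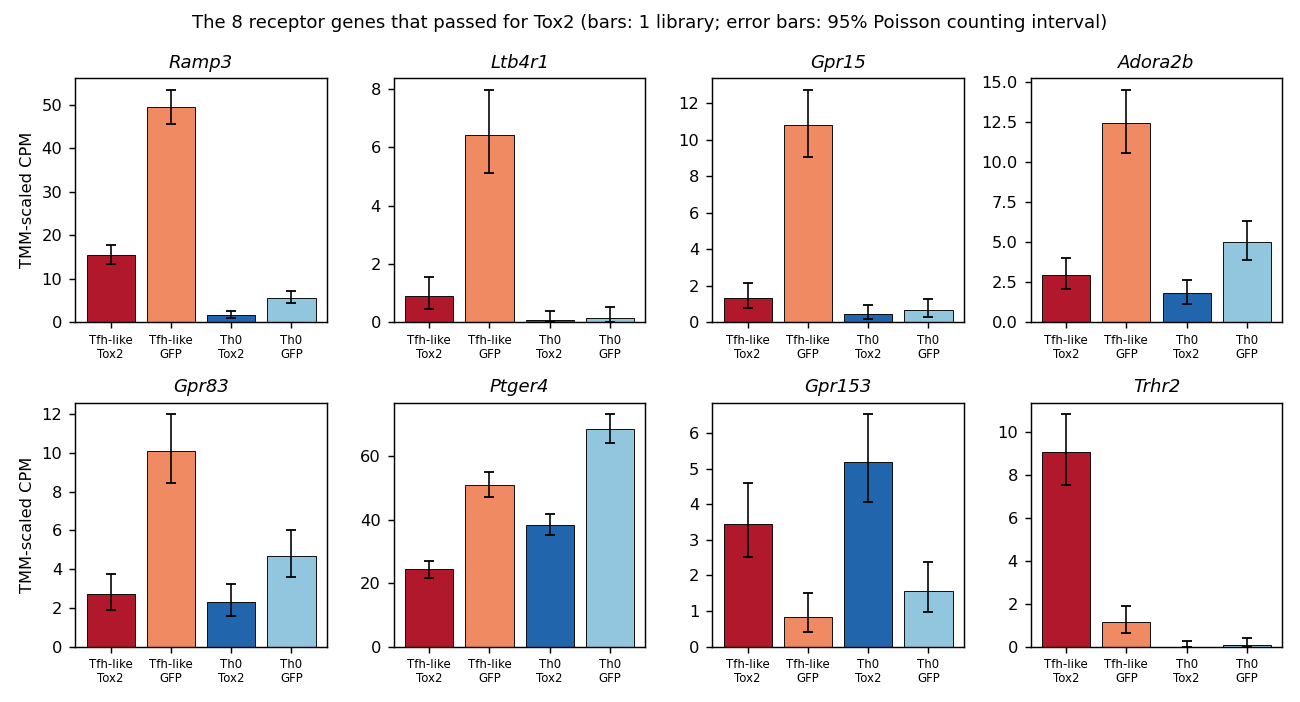
TMM-scaled CPM (vertical, from 0, a scale per panel) of the 8 receptor genes that passed for Tox2, by library (horizontal); each bar is 1 library and error bars are 95% Poisson counting intervals. Ramp3, Ltb4r1, Gpr15, Adora2b and Gpr83 are highest in Tfh-like with GFP, Ptger4 in Th0 with GFP, Gpr153 in Th0 with Tox2 and Trhr2 in Tfh-like with Tox2.

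Ramp3, Ltb4r1, Gpr15 and Adora2b passed in both comparisons, rising with the Tfh-like culture and falling with Tox2 (6.25% of receptor genes, 0.794% of all genes). With DESeq2, and after removal of GC and length trends, Ramp3 kept both calls. Under each of these Ltb4r1 and Gpr15 lost the Tox2 call and Adora2b lost the culture call. The entry of Ltb4r1 and Gpr15 rests on the Tfh-like libraries. Ltb4r1 reached the filter of 1 CPM only in Tfh-like with GFP, so its entry favoured both of its calls. Both effects come from the same 4 libraries, so the values stand side by side and no overlap is tested. The sequences before the start sites of these 4 genes are shown because the genes share these calls in the edgeR fit. Each is 250 bases up to the annotated start, 5′ to 3′ on the gene's strand, from RefSeq on GRCm38.p6, with a match to the AP-1 motif in capitals.

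Ramp3 (chr11:6658283-6658532, plus strand): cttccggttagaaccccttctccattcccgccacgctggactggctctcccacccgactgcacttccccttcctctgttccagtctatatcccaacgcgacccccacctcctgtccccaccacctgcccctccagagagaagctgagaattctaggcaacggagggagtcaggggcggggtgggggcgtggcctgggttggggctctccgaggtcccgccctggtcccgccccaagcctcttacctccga
Ltb4r1 (chr14:55765712-55765961, plus strand): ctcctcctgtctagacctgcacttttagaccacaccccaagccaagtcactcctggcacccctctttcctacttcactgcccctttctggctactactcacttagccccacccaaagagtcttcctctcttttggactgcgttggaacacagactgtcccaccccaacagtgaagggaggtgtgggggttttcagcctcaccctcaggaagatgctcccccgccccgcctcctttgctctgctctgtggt
Gpr15 (chr16:58718873-58719122, minus strand): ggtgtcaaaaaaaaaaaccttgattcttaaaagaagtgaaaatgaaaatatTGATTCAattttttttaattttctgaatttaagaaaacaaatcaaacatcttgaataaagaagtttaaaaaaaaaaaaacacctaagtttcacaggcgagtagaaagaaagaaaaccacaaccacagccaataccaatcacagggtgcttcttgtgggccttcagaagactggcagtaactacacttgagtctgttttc
Adora2b (chr11:62248734-62248983, plus strand): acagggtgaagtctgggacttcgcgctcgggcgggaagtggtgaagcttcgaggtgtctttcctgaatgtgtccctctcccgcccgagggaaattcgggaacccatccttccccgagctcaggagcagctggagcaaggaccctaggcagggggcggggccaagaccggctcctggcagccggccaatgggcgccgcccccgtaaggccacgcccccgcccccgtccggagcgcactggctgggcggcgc

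These stretches differ in composition: GC content is 65.2% in Ramp3, 56.8% in Ltb4r1, 31.6% in Gpr15 and 69.6% in Adora2b, and the number of CG pairs is 13, 3, 1 and 22 in that order of genes, where the median is 6 over all promoters. A STAT motif (TTCNNNGAA), a cyclic AMP response element (TGACGTCA), an AP-1 motif (TGANTCA) and a TCF/LEF motif (CTTTGAT) were searched on both strands. The only match was the AP-1 motif of Gpr15, which starts at -199 from the start site. Of 32536 promoters of the same length 6.73% hold that motif, 7.04% the STAT motif, 1.56% the cyclic AMP element and 3.21% the TCF/LEF motif. Among the 64 promoters of the 49 receptor genes that could be matched, 6, 3, 1 and 0 promoters hold them, in that order of motifs. The 3 with a STAT match belong to Gpr146, Gpr55 and Gpr62. A match is a run of letters and no measured site.

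More receptor genes were apart in the Tox2 pair of the Tfh-like culture, though the difference between the cultures in these counts was not tested. There 16 receptor genes were 2-fold apart between Tox2 and GFP (7 higher and 9 lower, where 4.75% of all genes were, 2.86% higher and 1.9% lower), and in Th0 5 were (3 higher and 2 lower, where 4.74% of all genes were, 3.18% higher and 1.56% lower). Ramp3 and Adora2b were lower in both cultures and Gpr153 was higher in both. Called lower in the Tfh-like pair but not the Th0 pair were F2rl3, Gpr15, Gpr55, Gpr65, Gpr83, Ltb4r1 and Ptger4, though Gpr83 (-0.98) and Ptger4 (-0.84) were close to the limit in Th0. Called higher in the Tfh-like pair but not the Th0 pair were Adgra3, Fzd6, Gpr182, Gpr35, Lpar6 and Trhr2. Gpr182 had 20 and 6 counts in Tfh-like and 14 and 13 counts in Th0, with Tox2 and GFP in each pair. It reached the filter of 1 CPM only through the Tox2 libraries, so its entry favoured a rise. The entry of Ltb4r1, through Tfh-like with GFP alone, favoured a fall. In Th0 and not in Tfh-like, Gpr137b, which has a pseudogene copy, and Gpr146 were called higher. With a prior count of 10, Adgra3, F2rl3, Fzd6, Gpr182 and Gpr65 lost their call in the Tfh-like pair and Gpr137b in the Th0 pair. The Tox2 fold had the same direction in both cultures for 76.6% of receptor genes and 70.6% of all genes. The overlap of calls between the cultures was not counted over all genes. F2rl3, a protease-activated receptor, had 4.33 and 8.96 CPM in Tfh-like with Tox2 and GFP, and 4.10 and 7.51 CPM in Th0 with Tox2 and GFP, so both pairs leaned the same way. The adhesion receptor Adgra3 had 10.2 and 4.83 CPM in Tfh-like, and 7.63 and 5.06 CPM in Th0, with Tox2 and GFP in each pair.

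**Figure D5:**
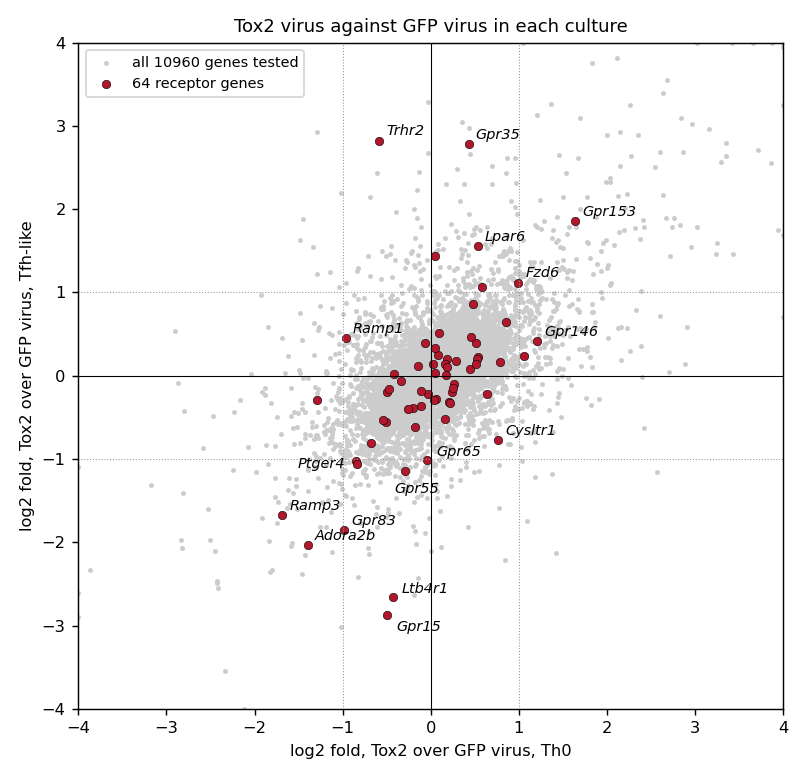
Log2 fold of Tox2 over GFP virus in Th0 (horizontal) and in Tfh-like culture (vertical) for 64 receptor genes (red) and all 10960 genes tested (grey; beyond the axes, drawn at the edge); each fold compares 1 library with 1 library and dotted lines mark 2-fold. Ramp3 and Adora2b sit at the lower left and Gpr153 at the upper right; the Th0 folds of Trhr2 and Ltb4r1 rest on at most 2 counts per library and depend on the prior count.

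For 6 receptor genes (4 positive, 2 negative) the Tox2 folds in Tfh-like and Th0 were 2-fold or more apart beyond counting error, where 3.74% of all genes were (1.78% positive, 1.96% negative). Trhr2 is among them but has no usable Th0 pair. Gpr35 had 61 counts in Tfh-like with Tox2 and 7 in Tfh-like with GFP, against 105 in Th0 with Tox2 and 75 in Th0 with GFP, so that its difference of folds was 2.35 on the log2 scale. The library that stands apart is Tfh-like with GFP, the lowest of the 4. Gpr15 went the other way, at -2.38, with 6 and 9 counts in its Th0 pair. Lpar6, a lysophosphatidic acid receptor, had 215 counts in Tfh-like with Tox2 and 70 in Tfh-like with GFP, against 197 in Th0 with Tox2 and 131 in Th0 with GFP, a difference of 1.02. Lpar6 lies within Rb1 and shares 7.56% of its exon bases with it. Ramp1 and Cysltr1, the last 2 of the 6, had opposite directions in the cultures. Ramp1 had 136 CPM in Tfh-like with Tox2 and 99.5 in Tfh-like with GFP, but 83.6 in Th0 with Tox2 and 164 in Th0 with GFP. Cysltr1 had 6.80 and 11.7 CPM in Tfh-like with Tox2 and GFP, but 3.38 and 1.93 CPM in Th0.

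Gpr65 and Gpr55 belong to the genes called between Tox2 and GFP in the Tfh-like pair and not in Th0. Gpr65 had 455 counts in Tfh-like with Tox2 and 894 in Tfh-like with GFP, a log2 fold of -1.01 (95% counting interval -1.18 to -0.85), and 164 and 163 counts in Th0. Gpr55 had 66 and 145 counts in Tfh-like (-1.15, interval -1.61 to -0.74), and 370 and 439 in Th0. Neither passed for Tox2 over both cultures, at adjusted p = 0.146 for Gpr65 and 0.128 for Gpr55 (edgeR). Gpr146 was higher with Tox2 in both cultures, at 163 and 122 CPM in Tfh-like and 54.4 and 23.5 CPM in Th0, but did not pass (0.78, SE 0.19, adjusted p = 0.0602).

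Signal carriers behind the receptors were counted in lists chosen with results of these data known. Of 37 G protein subunits and regulators tested, 10 rose and 2 fell with the Tfh-like culture (27% and 5.41%, against 14.3% and 9.96% of all genes), at a median log2 fold of 0.17. Gnaz, a Gi-class alpha subunit, had 6.72 and 6.59 CPM in Tfh-like libraries with Tox2 and GFP, against 0.720 and 0.521 CPM in Th0 libraries (3.41, SE 0.34). It reached the filter of 1 CPM only through the Tfh-like libraries, so its entry favoured a rise. The beta subunit Gnb5 rose by 1.90, the RGS proteins Rgs8 and Rgs11, which switch alpha subunits off, by 1.85 and 1.15, and beta-arrestin 1, Arrb1, by 1.26. The Gq alpha subunit Gnaq had 30.6 and 20.9 CPM in Tfh-like and 105 and 63.9 CPM in Th0, and fell by 1.70 (SE 0.11, adjusted p = 0.000278). The Gs alpha subunit Gnas also fell, by 0.53. With Tox2 1 of the 37 rose and 2 fell (2.7% and 5.41%, against 4.07% and 2.74% of all genes): Gnaq rose by 0.64 (adjusted p = 0.0252), and the alpha subunit Gna15 and the receptor kinase Grk5 fell, by 0.64 and 0.87.

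Among 28 enzymes and channels of cyclic AMP and phospholipase C signalling, 8 rose and 3 fell with the Tfh-like culture (28.6% and 10.7%, against 14.3% and 9.96% of all genes), so the share that fell was close to that of all genes. The calcium release channel Itpr1 had 295 and 179 CPM in Tfh-like libraries with Tox2 and GFP, against 118 and 68.0 CPM in Th0 libraries, and rose with the culture by 1.36 (adjusted p = 0.000449) and with Tox2 by 0.76 (adjusted p = 0.0129, edgeR). Its relative Itpr2 rose with Tox2 by 0.73 (adjusted p = 0.0399) and did not pass for the culture (0.03, adjusted p = 0.907). The phosphodiesterase Pde8a, which degrades cyclic AMP, fell with the culture by 0.97, and the adenylyl cyclase Adcy7, which makes it, by 0.52.

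Of 21 enzymes and channels that make, release or remove the ligands, 6 rose and 4 fell with the Tfh-like culture (28.6% and 19%, against 14.3% and 9.96% of all genes). With Tox2 1 rose and 2 fell (4.76% and 9.52%, against 4.07% and 2.74% of all genes), so the share that rose was close to that of all genes. Enpp2, the autotaxin that makes lysophosphatidic acid, had 87 and 304 counts in Tfh-like libraries with Tox2 and GFP, against 2 and 4 counts in Th0 libraries. Enpp2 is listed only through the Tfh-like libraries, so its listing favoured a rise with the culture. It rose with the culture and fell with Tox2 by 1.78 (SE 0.29, adjusted p = 0.0233, edgeR), which is the pattern of Ramp3 and Ltb4r1. Panx1, a channel that releases ATP, did the same at a smaller size, with a rise of 0.70 and a fall of 0.81. Nt5e, the CD73 that makes adenosine, had 157 and 132 CPM in Tfh-like and 263 and 321 CPM in Th0 libraries and fell by 1.01 with the culture. Adk, which removes adenosine, rose with Tox2 by 0.65 (adjusted p = 0.0259).

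Of 11 genes that cyclic AMP is known to induce, 3 rose and 1 fell with Tox2 (27.3% and 9.09%, against 4.07% and 2.74% of all genes), at a median log2 fold of 0.39. With the Tfh-like culture 1 rose and 5 fell (9.09% and 45.5%, against 14.3% and 9.96% of all genes), at a median of -0.34. The nuclear receptor Nr4a1 had 258 and 149 CPM in Tfh-like libraries with Tox2 and GFP, and 734 and 529 CPM in Th0 libraries with Tox2 and GFP. It rose with Tox2 by 0.63 (adjusted p = 0.0305) and fell with the culture by 1.67 (adjusted p = 0.000383, edgeR). Dusp1, a phosphatase of MAP kinases, rose with Tox2 by 1.16 and fell with the culture by 1.15. Areg, a growth factor gene, fell with Tox2 by 1.73, and Crem rose with the culture by 1.05. Many of these genes also answer to the T cell receptor, and no ligand or cyclic AMP level was measured.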

How the data were processed

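RNA was sequenced in 4 libraries, 1 per combination of virus and culture. The authors deposited whole-number read counts per gene, not normalized, and FPKM for the same genes, per the file headers. Per the submitters' processing notes the build was mm10 and the tools included Bowtie2, featureCounts from Subread, edgeR and Trim Galore 0.4.4, with no role given. Neither an annotation nor a strand setting is named there, so overlapping genes and near-identical copies can share reads. FPKM was used only for levels between genes.

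Counts were scaled by TMM over all listed genes (edgeR 4.0.16, R 4.3.3), with factors of 0.987 and 0.966 in Tfh-like (Tox2, then GFP) and 1.02 and 1.03 in Th0 (Tox2, then GFP). CPM in the text is TMM-scaled except in the listing level and the filter. The 10960 genes with at least 1 CPM in at least 1 library were fitted with edgeR's quasi-likelihood test (culture plus virus, 1 residual degree of freedom, median prior degrees of freedom 5.52), with Benjamini-Hochberg adjustment over all of them and a threshold of 0.05. The fit was tested on simulated counts. Its adjusted p is the one printed unless another tool is named, and "rose" and "fell" refer to it. Pairs of libraries were described by log2 folds with a prior count of 2 and exact conditional binomial 95% intervals, which cover counting error only, as reads are not independent molecules. Ratios without a prior count are given for genes with 0 to 3 counts in a library.

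The genes and the pathway lists were chosen with earlier results of these data known. Named are the genes that passed, those 2-fold apart at 5 CPM or more, those whose Tox2 fold differed between cultures and the 10 highest by FPKM. Some genes that this rule takes are not reported here. Others serve as examples of a family, chosen after their values were seen. Alternatives were DESeq2 1.42.0, limma-voom (limma 3.58.1), RLE and total-count scaling, other filters and prior counts, robust estimation and leaving out name matches that are no receptors. Added after seeing the data were removal of GC and length trends and leaving out Ltb4r1 and Trhr2, which are listed only through the Tfh-like libraries. Gpr15 and Fzd10, which reached the filter of 1 CPM only through the Tfh-like libraries, were not left out. Nor was Gpr182, which reached it only through the Tox2 libraries.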

Additional observations from a re-analysis of the deposited data

Results flagged for a closer look

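In 4 receptor genes the Tox2 library lay above the GFP library in 1 culture and below it in the other, with each counting interval clear of 0. The share of all genes that meet this was not counted. Without the interval condition, 76.6% of receptor genes and 70.6% of all genes had the same direction in both cultures, so opposite directions were no more frequent in receptor genes. The difference between the folds was not tested, since each group is 1 library. Cysltr1 had a log2 fold of -0.77 in Tfh-like and 0.76 in Th0, a difference of -1.53. Fzd7 had -0.22 in Tfh-like and 0.63 in Th0, a difference of -0.86. S1pr1 had -0.15 in Tfh-like and 0.26 in Th0, a difference of -0.41. Ramp1 had 0.45 in Tfh-like and -0.97 in Th0, a difference of 1.42. Seen along the culture, Ramp1 was higher in Tfh-like than in Th0 with Tox2, at 0.70, and lower with GFP, at -0.72, which is the same difference of 1.42 and was likewise not tested.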

How the results depend on the processing

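The culture count of 28 receptor genes stayed between 21 and 31 under the alternatives tried, and the counts of genes 2-fold apart stayed within 1.5 times of their values. The Tox2 count of 8 did not: DESeq2 gave 4, a filter at 5 CPM gave 5, removal of GC and length trends gave 4 and total-count scaling gave 13. The cause was not tested. With total-count scaling the median log2 fold of all genes in the Tfh-like against Th0 pair with GFP was -0.11, where it was -0.01 with TMM. For the Tox2 effect over all genes it called 1193, of which 681 were higher (746 and 446 with TMM), and DESeq2 called 492 and removal of the trends 489. For the culture effect it called 3149 genes, of which 1500 were higher, and removal of the trends 2927, of which 1320 were higher, against 1564 of 2656. Of 770 single-gene values under the alternatives, 723 kept direction and call. Another 47 lost their call (25 in the additive fit and 22 as 2-fold apart between libraries), and 0 turned their sign. Part of the 723 could not change. Leaving out name matches kept the same fit and folds, and the filters did not enter the folds between 2 libraries. Without Ltb4r1 and Trhr2, 6 receptor genes passed for Tox2 and 26 for the culture. The count of 26 still holds Gpr15 and Fzd10, which reached the filter of 1 CPM only through the Tfh-like libraries. No paired analysis was possible because each group has 1 library. Leaving out a library leaves the additive fit no residual degree of freedom and was not run.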
